A study of Mus musculus with 18 samples.

Results

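The early secretory pathway was described here by 43 genes whose products fold, oxidise, translocate or dispose of proteins in the endoplasmic reticulum (ER), or sense the load of that compartment, and all 43 were present among the 23420 gene symbols measured. The genes were chosen by name for their known function, by a rule that uses no measured value, though with earlier results of these data known. Their mRNA was followed in 18 RNA-seq libraries of bead-purified splenic B cells from lupus-prone MRL/lpr mice aged 5 to 7 weeks, in 6 groups of 3 libraries, kept for 4 hours with a Toll-like receptor (TLR) agonist or without one. In the first arm, all from Tlr7-/- females, Tlr9het B cells (Tlr9+/-, the control genotype) and Tlr997 B cells (homozygous for a knock-in at Tlr9, altered so that TLR9 carries the signalling TIR domain of TLR7) were left unstimulated or given the TLR9 agonist CpG ODN 1826 at 10 µg/ml. In the second arm, from Tlr9-/- males, B cells of Tlr779 mice, in which the X-linked Tlr7 gene encodes TLR7 with TLR9's TIR domain, received no agonist or the TLR7 agonist CL097 at 5 µg/ml. Sex, genotype and agonist all differ between the arms and cannot be told apart, so values of the arms are given side by side with no test between them, and the wild-type TLR7 control cells of the second arm were not analysed here. The sample titles name the control of the first arm Tlr9+/-, whereas the treatment description writes Tlr9-/- for it, and the titles were followed. The protocol gives 3 mice per genotype for unstimulated and stimulated cells alike, without saying which libraries share a mouse, so p-values measure the spread between these libraries. All mice carry the Fas lpr mutation, and the receptor changes are in all cells of the mouse.

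In B cells the ER is where immunoglobulin chains and surface receptors are threaded through the Sec61 channel, trimmed by signal peptidase, glycosylated, oxidised and folded by chaperones, while failed products are pulled back to the cytosol and degraded. The load of unfolded protein is read by the sensors IRE1 (Ern1), ATF6 and PERK (Eif2ak3), which together drive the unfolded protein response (UPR). Cleaved ATF6 and spliced XBP1 raise chaperone and degradation genes, and PERK, like other kinases of the integrated stress response, raises translation of ATF4, a transcription factor of amino acid supply genes and of Trib3 and Ddit3. The program is best known in B-lineage cells for its expansion as they become antibody-secreting plasma cells.

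Expression is given as log2 CPM, the base 2 logarithm of counts scaled to library size (CPM) and quantile normalised across libraries. Between-group differences came from limma with Benjamini-Hochberg adjustment over all genes tested (11494 in the first arm, 11082 in the second), and a gene was called when its adjusted p was under 0.05 and its absolute log2 fold change over 0.5. Read depth cannot be recovered from such values. Replicate libraries correlated at 0.944 to 0.989 (Pearson, 11676 genes), the 2 lowest values involving the third unstimulated Tlr997 library. The levels of Tlr7 (2.68 to 5.36 log2 CPM in the Tlr7-/- libraries, higher in Tlr997 than in Tlr9het) and of Tlr9 (6.93 to 7.47 in the Tlr9-/- libraries) do not check the deletions, since reads were present at both genes in the genotypes that lack them. By design the Tlr997 allele holds inserted coding sequence of the Tlr7 TIR domain, and the Tlr779 allele that of the Tlr9 TIR domain. The share of these reads that comes from the inserts was not tested. All 7 B cell markers were above 0 log2 CPM in every library. Their summed level with agonist went from 6094 to 6818 CPM to 1822 to 1876 in Tlr9het, from 5854 to 6478 to 2787 to 3328 in Tlr997 and from 5993 to 7670 to 2576 to 3231 in Tlr779, and in bulk RNA fewer cells of a type cannot be told apart from less RNA per cell. T cell markers (5 genes) summed to 21.2 CPM or less, NK cell markers (3 genes) to 3.22 or less and macrophage markers (5 genes) to between 80.8 and 438.5, lower with agonist in Tlr9het. Neutrophil markers (5 genes) summed to 21.4 to 129.5 CPM in libraries of the first arm and 3.402 to 15.7 in those of the second, and plasmacytoid dendritic cell markers (2 genes) to 8.502 or less. Erythroid markers (5 genes) ranged from 12.3 to 474.4 CPM, from 20.5 to 474.4 within the unstimulated Tlr997 group alone, with Hba-a1, Hba-a2 and Hbb-b1 at or under 0 log2 CPM throughout. The part of such cells in the results was not tested.

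The promoters of 35 of the 43 genes were found in the RefSeq table (GRCm38.p6, 250 bases before to 50 after the start of transcription). The ER stress response element, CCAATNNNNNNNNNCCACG on either strand, is the letter pattern through which ATF6 and XBP1 act with NF-Y. It was present in 9 of these 35 windows, against 0.119% of all 32851 windows. The stretches below hold those 9 genes' elements with 10 bases on each side, written 5′ to 3′ on the strand of the gene with both boxes of the element in capitals. They are shown because genes that carry the same element did not move in the same direction in the B cells described afterwards.

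Hspa5 (chr2:34772015-34772053, plus strand): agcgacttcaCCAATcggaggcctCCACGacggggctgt
Hsp90b1 (chr10:86705628-86705666, minus strand): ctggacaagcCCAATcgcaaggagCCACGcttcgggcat
Hsp90b1 (chr10:86705523-86705561, minus strand): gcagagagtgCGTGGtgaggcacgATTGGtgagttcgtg
Calr (chr8:84847065-84847103, minus strand): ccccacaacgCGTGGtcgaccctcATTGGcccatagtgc
Canx (chr11:50325790-50325828, minus strand): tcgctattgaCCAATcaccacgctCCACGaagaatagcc
Pdia6 (chr12:17266481-17266519, plus strand): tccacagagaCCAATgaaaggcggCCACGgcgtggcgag
Dnajc3 (chr14:118937817-118937855, plus strand): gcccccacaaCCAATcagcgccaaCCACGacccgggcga
Syvn1 (chr19:6046522-6046560, plus strand): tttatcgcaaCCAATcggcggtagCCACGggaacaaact
Creld2 (chr15:88819510-88819548, plus strand): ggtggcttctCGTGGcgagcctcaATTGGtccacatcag
Derl3 (chr10:75893232-75893270, plus strand): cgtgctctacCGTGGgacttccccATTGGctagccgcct

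The first base of the element lies 65 bases before the start of transcription in Hspa5, 44 in Syvn1, 98 in Pdia6, 105 in Dnajc3, 126 in Creld2, 145 in Canx, 156 in Derl3 and 162 in Calr, and Hsp90b1 has the pattern at 212 and, on the opposite strand, at 107 bases. The shorter ERSE-II (ATTGGNCCACG, 0.0365% of all windows) was found before the start of Herpud1, at 52 bases, and inside the transcribed part of the Dnajb11 window. The amino acid response pattern bound by ATF4 with its partners, TGATGNAA (3.97% of all windows), was found in the windows of Trib3, Herpud1 and Txndc5. The core TGACGTGG of the unfolded protein response element (0.676% of all windows) was found in those of Txndc5 and Txndc11, of which Txndc11 fell with CpG in Tlr9het (-0.90) and Txndc5 was not called (0.46). Both core matches lie inside the annotated gene, before an alternative start. These matches are descriptions of letters and not binding sites, and a window without a match says only that these letters are not in it. The Herpud1 ERSE-II and the whole 250 bases before Hspa5 and Hsp90b1, a pair of chaperones that carry the same element and moved in opposite directions, read as follows, with the boxes in capitals.

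Herpud1 (chr8:94386367-94386397, plus strand): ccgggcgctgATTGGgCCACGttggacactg
Hspa5 upstream (chr2:34771840-34772089, plus strand): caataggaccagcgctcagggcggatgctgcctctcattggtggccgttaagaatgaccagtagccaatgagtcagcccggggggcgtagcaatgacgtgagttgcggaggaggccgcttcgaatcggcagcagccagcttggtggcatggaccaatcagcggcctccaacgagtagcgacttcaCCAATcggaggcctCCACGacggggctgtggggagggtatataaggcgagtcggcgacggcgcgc
Hsp90b1 upstream (chr10:86705445-86705694, minus strand): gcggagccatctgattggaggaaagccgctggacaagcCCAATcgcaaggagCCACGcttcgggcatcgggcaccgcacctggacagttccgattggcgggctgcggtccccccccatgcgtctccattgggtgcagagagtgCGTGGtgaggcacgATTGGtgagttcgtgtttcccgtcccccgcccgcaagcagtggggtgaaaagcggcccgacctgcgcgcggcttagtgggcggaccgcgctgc

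With agonist, genes of the pathway moved in both directions, as did genes at large. With CpG in Tlr9het B cells, 11 of the 43 genes rose and 9 fell, where 29.7% of all genes tested were called higher and 28.2% lower. In Tlr997 B cells 9 rose (29.6% of all genes) and 10 fell (26% of all genes), and with CL097 in Tlr779 B cells 7 rose (22.7% of all genes) and 9 fell (23.6% of all genes) among the 42 that could be tested. The shares of the 43 genes, 25.6% and 20.9% in Tlr9het, were thus not above those of all genes. Counts within the roles below rest on 1 to 8 genes each and are descriptions beside these shares. Their median absolute log2 fold change was 0.46 with CpG in Tlr9het, against 0.72 over all genes tested, 0.36 against 0.68 in Tlr997 and 0.29 against 0.53 with CL097.

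The summed level of the 43 genes was 7286 to 7366 CPM in unstimulated Tlr9het libraries and 8072 to 8423 with CpG, 7476 to 7530 and 7520 to 8150 in Tlr997, and 7512 to 7683 and 7265 to 7532 with CL097 in Tlr779. The stimulated libraries were above the unstimulated ones in Tlr9het, and the ranges overlapped in Tlr997 and Tlr779. The makeup of this total changed. The summed stress sensors and transcription factors went from 470.4 to 486.2 CPM up to 1096 to 1145 in Tlr9het, whereas the degradation genes went from 860 to 894.1 CPM down to 700.9 to 754.2. The lower sum does not hold for each degradation gene. Of the 7, 5 had a positive log2 fold change in Tlr9het, and Syvn1 (-1.48) and Edem1 (-0.54) a negative one.

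**Figure D1:**
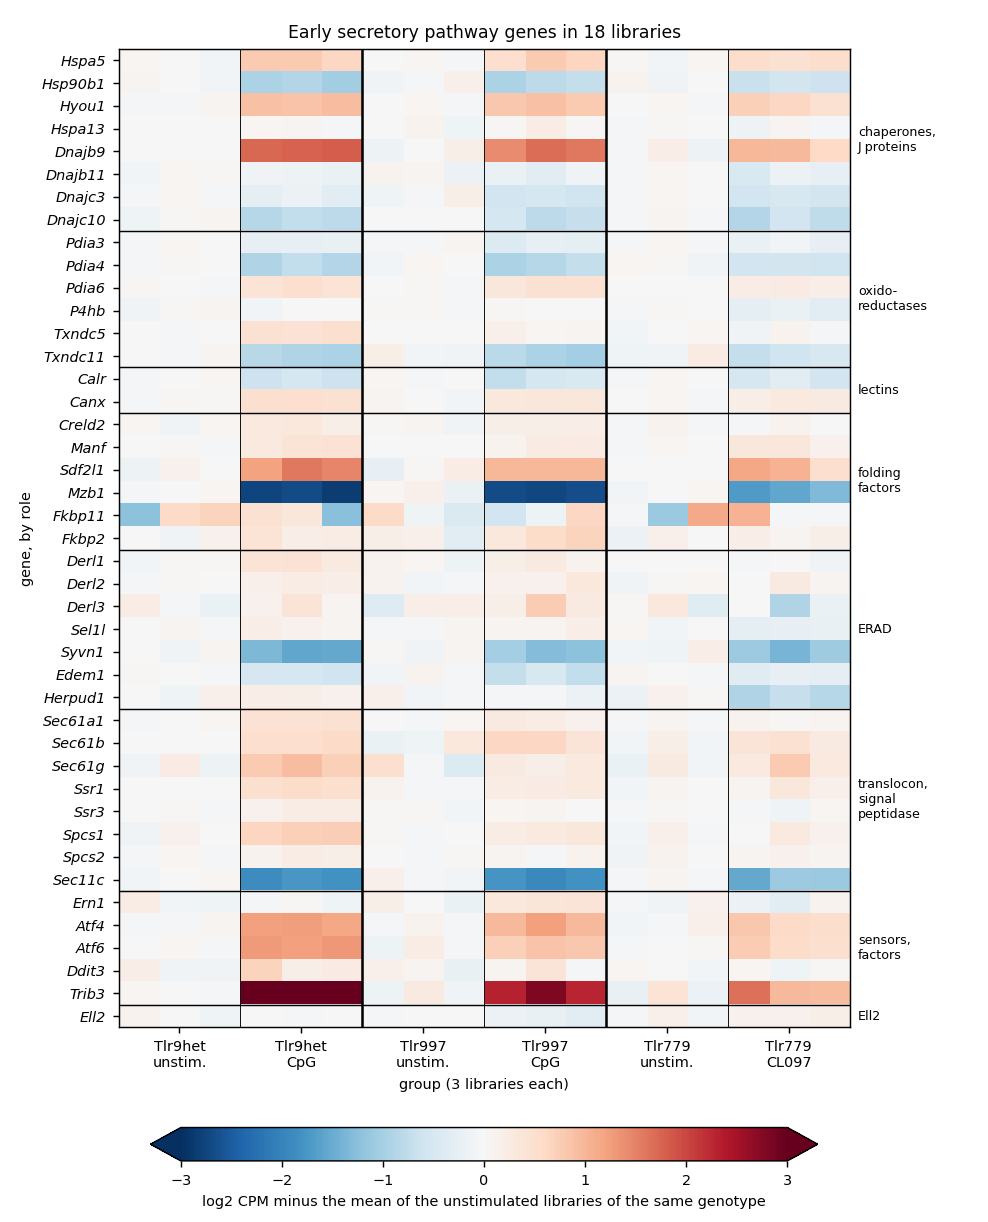
Heat map of the 43 genes (rows, by role) in the 18 libraries (columns, 3 per group); colour gives log2 CPM minus the mean of the unstimulated libraries of the same genotype, from -3 to 3. Trib3 and Dnajb9 are red and Mzb1 and Sec11c blue in all 9 stimulated libraries, and most rows are pale.

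Hspa5 and Hsp90b1, the HSP70 and HSP90 of the ER lumen known as BiP and GRP94, moved apart. Hspa5 measured 9.82, 9.79 and 9.69 log2 CPM in the unstimulated Tlr9het libraries and 10.54, 10.55 and 10.39 with CpG. In Tlr997 B cells the values were 9.76, 9.85 and 9.73 before and 10.27, 10.55 and 10.43 after CpG, and in Tlr779 B cells 9.72, 9.63 and 9.75 before and 10.23, 10.15 and 10.23 after CL097. Every stimulated library was above every unstimulated one in each genotype. The log2 fold change of Hspa5 was 0.73 (SE 0.074, adjusted p = 9.15e-07) with CpG in Tlr9het, 0.64 (SE 0.074, adjusted p = 3.75e-06) with CpG in Tlr997 and 0.51 (SE 0.067, adjusted p = 0.000316) with CL097. Hspa5 (chr2:34772090-34776529, GRCm38.p6) thus rose 1.66-fold with CpG in Tlr9het. With CL097 it lay at the fold threshold, and the call was lost without the second unstimulated, the first stimulated or the third stimulated Tlr779 library (log2 fold changes 0.47, 0.49 and 0.49).

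The Hsp90b1 level was 9.68, 9.58 and 9.52 log2 CPM unstimulated and 8.64, 8.72 and 8.56 with CpG in Tlr9het. The Tlr997 libraries read 9.404, 9.46 and 9.67 unstimulated and 8.57, 8.72 and 8.79 with CpG, and the Tlr779 libraries 9.59, 9.39 and 9.47 unstimulated and 8.81, 8.94 and 8.85 with CL097. Hsp90b1 (chr10:86690841-86705444, GRCm38.p6) fell in all 3 genotypes with no overlap between stimulated and unstimulated libraries. On the log2 scale Hsp90b1 differed by -0.96 (SE 0.078, adjusted p = 1.05e-07) in Tlr9het, -0.82 (SE 0.078, adjusted p = 5.64e-07) in Tlr997 and -0.62 (SE 0.074, adjusted p = 0.000193) with CL097. Within a library the ratio of Hspa5 to Hsp90b1 was therefore higher with agonist, 3.21-fold with CpG in Tlr9het (1.65 to 1.73 on the log2 scale over the 3 libraries, relative to the unstimulated mean), 2.75-fold in Tlr997 (1.37 to 1.57) and 2.18-fold with CL097 (1.00 to 1.20). The largest deviation of any unstimulated library from its group mean was -0.21. Gene length cancels in such a change of a ratio.

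**Figure D2:**
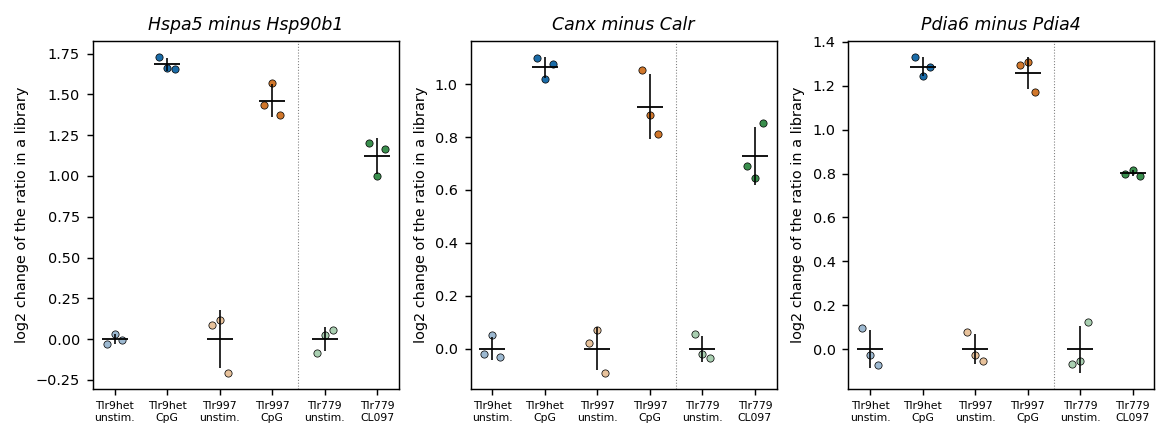
Change in the ratio of 2 transcripts within each library, on the log2 scale relative to the mean of the unstimulated libraries of the same genotype, for Hspa5 to Hsp90b1, Canx to Calr and Pdia6 to Pdia4; points are libraries, lines means and bars SD (3 libraries). All stimulated libraries lie above all unstimulated libraries in each panel.

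Among the J proteins, which hand substrates to BiP, Dnajb9 (ERdj4), itself a UPR target, showed the largest change. Dnajb9 measured 5.75, 5.75 and 5.72 log2 CPM in the unstimulated Tlr9het libraries and 7.47, 7.52 and 7.55 with CpG. Tlr997 B cells held 5.82, 5.94 and 6.13 without and 7.38, 7.64 and 7.55 with CpG, and Tlr779 B cells 5.87, 6.12 and 5.78 without and 6.92, 6.902 and 6.52 with CL097. Fitted by limma, the Dnajb9 responses were 1.77 (SE 0.08, adjusted p = 2.89e-10) for CpG in Tlr9het, 1.56 (SE 0.08, adjusted p = 1.21e-09) for CpG in Tlr997 and 0.86 (SE 0.13, adjusted p = 0.000734) for CL097. Dnajb9 thus rose 3.41-fold in Tlr9het. Hyou1 (GRP170), the nucleotide exchange factor of BiP, rose with it, by 0.88, 0.82 and 0.60 on the log2 scale in the same order (adjusted p = 4.34e-09, 1.09e-08 and 0.000341).

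Other J proteins went down or did not pass. Dnajc10 (ERdj5), a disulfide reductase that prepares proteins for degradation, was the gene of this group with the lowest fold change under CL097. The Dnajc10 level was 6.86, 7.02 and 7.07 log2 CPM unstimulated and 6.13, 6.23 and 6.19 with CpG in Tlr9het. With CpG in Tlr997 the level went from 6.98, 6.95 and 6.99 to 6.45, 6.18 and 6.29, and with CL097 in Tlr779 from 6.97, 7.09 and 6.98 to 6.13, 6.44 and 6.25. This gave Dnajc10 log2 fold changes of -0.80 (SE 0.073, adjusted p = 3.31e-07) in Tlr9het, -0.67 (SE 0.073, adjusted p = 2.26e-06) in Tlr997 and -0.74 (SE 0.09, adjusted p = 0.00021) in Tlr779. Dnajc3 (p58IPK) fell with CpG in Tlr997 (-0.57) and with CL097 (-0.54) and measured -0.26 in Tlr9het, under the fold threshold. The difference between the CpG responses of Dnajc3 was -0.30 (adjusted p = 0.193) and did not pass. The Dnajc3 call in Tlr997 was lost without the third unstimulated library (log2 fold change -0.48). Dnajb11 (ERdj3) measured -0.15, -0.21 and -0.29, and Hspa13, an atypical HSP70, 0.023, 0.099 and -0.03, with none of them called. Of these 8 chaperones and J proteins, 3 rose in each response and 2, 3 and 3 fell with CpG in Tlr9het, CpG in Tlr997 and CL097.

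The 6 thiol oxidoreductases, which form and shuffle disulfide bonds, had no gene called higher in any response and 2 called lower in each, Pdia4 and Txndc11. Txndc11 measured 6.37, 6.32 and 6.47 log2 CPM in the unstimulated Tlr9het libraries and 5.55, 5.48 and 5.44 with CpG. Its levels in Tlr997 were 6.62, 6.35 and 6.34 unstimulated against 5.63, 5.49 and 5.41 with CpG, and in Tlr779 6.46, 6.49 and 6.83 against 5.88, 6.01 and 6.11 with CL097. Txndc11 had log2 fold changes of -0.90 (SE 0.085, adjusted p = 4.78e-07) with CpG in Tlr9het, -0.92 (SE 0.085, adjusted p = 4.06e-07) in Tlr997 and -0.59 (SE 0.11, adjusted p = 0.00236) with CL097. All 9 stimulated libraries were below all 9 unstimulated ones. Without the third unstimulated Tlr779 library, the highest of its group, the CL097 log2 fold change of Txndc11 was -0.48. Pdia4 (ERp72) fell by 0.84, 0.84 and 0.58 on the log2 scale (adjusted p = 9.43e-08, 1.13e-07 and 0.000192).

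Pdia6 (ERp5), which works with BiP, stood higher with agonist, under the fold threshold. The Pdia6 level was 7.504, 7.47 and 7.399 log2 CPM unstimulated and 7.88, 7.96 and 7.86 with CpG in Tlr9het. For Tlr997 the unstimulated values of 7.52, 7.55 and 7.47 stood against 7.86, 7.97 and 7.96 with CpG, and for Tlr779 7.54, 7.53 and 7.56 against 7.77, 7.80 and 7.73 with CL097. For Pdia6 the differences were 0.44 (SE 0.052, adjusted p = 3.76e-06) in Tlr9het, 0.42 (SE 0.052, adjusted p = 7.27e-06) in Tlr997 and 0.23 (SE 0.057, adjusted p = 0.00903) in Tlr779 on the log2 scale. Stimulated and unstimulated libraries did not overlap in any genotype, and the ratio of Pdia6 to Pdia4 within a library was higher 2.44-fold with CpG in Tlr9het, 2.39-fold in Tlr997 and 1.74-fold with CL097.

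Txndc5 (ERp46) had the highest fold change of the 6 with CpG in Tlr9het. Txndc5 measured 7.03, 6.99 and 7.03 log2 CPM in the unstimulated Tlr9het libraries and 7.48, 7.44 and 7.499 with CpG. Unstimulated Tlr997 libraries had 7.07, 7.07 and 7.04 and those with CpG 7.21, 7.13 and 7.14, while Tlr779 had 6.95, 7.04 and 7.08 and, with CL097, 6.91, 7.13 and 6.98. The log2 fold change of Txndc5 was 0.46 (SE 0.046, adjusted p = 8.36e-07) with CpG in Tlr9het, 0.096 (SE 0.046, adjusted p = 0.0778) with CpG in Tlr997 and -0.016 (SE 0.078, adjusted p = 0.873) with CL097. The unstimulated and CpG libraries of Tlr9het were far apart, while those of Tlr997 were close and those of Tlr779 overlapped. Pdia3 (ERp57), the partner of the lectin chaperones, measured -0.24, -0.31 and -0.17, and P4hb (PDI) -0.03, 0.019 and -0.27, none of them called.

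The lectin chaperones calreticulin (Calr, soluble) and calnexin (Canx, in the membrane), which hold glycoproteins while they fold, shifted relative to each other. Calr measured 9.47, 9.49 and 9.58 log2 CPM in the unstimulated Tlr9het libraries and 8.895, 8.99 and 8.89 with CpG. In Tlr997 B cells the values were 9.54, 9.42 and 9.504 before and 8.75, 8.95 and 9.02 after CpG, and in Tlr779 B cells 9.47, 9.59 and 9.504 before and 9.03, 9.18 and 8.94 after CL097. On the log2 scale Calr differed by -0.59 (SE 0.069, adjusted p = 3.75e-06) in Tlr9het, -0.58 (SE 0.069, adjusted p = 4.65e-06) in Tlr997 and -0.47 (SE 0.077, adjusted p = 0.00101) with CL097. All stimulated libraries were below all unstimulated ones, and Calr was called with CpG in both genotypes but stayed under the fold threshold with CL097.

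The Canx level was 8.87, 8.97 and 8.98 log2 CPM unstimulated and 9.42, 9.44 and 9.39 with CpG in Tlr9het. The Tlr997 libraries read 9.03, 8.96 and 8.88 unstimulated and 9.27, 9.31 and 9.298 with CpG, and the Tlr779 libraries 9.06, 9.097 and 8.996 unstimulated and 9.25, 9.35 and 9.33 with CL097. Fitted by limma, the Canx responses were 0.48 (SE 0.05, adjusted p = 1.34e-06) for CpG in Tlr9het, 0.33 (SE 0.05, adjusted p = 4.5e-05) for CpG in Tlr997 and 0.26 (SE 0.063, adjusted p = 0.00804) for CL097. Every stimulated Canx value was above every unstimulated value of its genotype, with each fold change under the threshold. The ratio of Canx to Calr within a library was higher 2.09-fold with CpG in Tlr9het, 1.89-fold in Tlr997 and 1.66-fold with CL097.

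Mzb1, a co-chaperone of GRP94 that marginal zone and B1 B cells hold at high levels and that assists IgM assembly, had the largest fall of the 43 genes. Mzb1 measured 6.89, 6.91 and 6.99 log2 CPM in the unstimulated Tlr9het libraries and 4.17, 4.25 and 4.08 with CpG. Tlr997 B cells held 7.08, 7.17 and 6.82 without and 4.34, 4.28 and 4.36 with CpG, and Tlr779 B cells 7.33, 7.42 and 7.48 without and 5.72, 5.86 and 6.08 with CL097. This gave Mzb1 log2 fold changes of -2.76 (SE 0.086, adjusted p = 1.2e-11) in Tlr9het, -2.70 (SE 0.086, adjusted p = 2.16e-11) in Tlr997 and -1.52 (SE 0.099, adjusted p = 1.04e-05) in Tlr779. The highest stimulated Mzb1 library was below the lowest unstimulated one in each genotype. The fall was 6.79-fold and 6.49-fold with CpG and 2.87-fold with CL097. Beside it, the summed B cell markers fell as given above. Of the 5 plasma cell markers, Sdc1 and Igj also fell, with log2 fold changes of -1.43 and -0.73 in Tlr9het, -2.02 and -0.74 in Tlr997 and -2.49 and -0.71 with CL097, Irf4 rose by 1.61, 1.36 and 1.58, Prdm1 was not called and Tnfrsf17 was at or under 0 log2 CPM in all libraries. The summed plasma cell markers, of which Irf4 was the most abundant with agonist, went from 973.4 to 1342 CPM to 2287 to 2547 in Tlr9het, from 1086 to 1215 to 2037 to 2213 in Tlr997 and from 1189 to 1509 to 2192 to 2459 in Tlr779. The part of a change in cell makeup in these falls was not tested.

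Sdf2l1, a lumenal partner of the BiP and J protein cycle, had the largest rise of the folding factors. The Sdf2l1 level was 2.599, 2.88 and 2.75 log2 CPM unstimulated and 3.96, 4.32 and 4.21 with CpG in Tlr9het. With CpG in Tlr997 the level went from 2.82, 3.09 and 3.27 to 4.05, 4.06 and 4.05, and with CL097 in Tlr779 from 2.98, 2.99 and 3.01 to 4.14, 4.02 and 3.497. Sdf2l1 had log2 fold changes of 1.42 (SE 0.14, adjusted p = 9.98e-07) with CpG in Tlr9het, 0.99 (SE 0.14, adjusted p = 3.52e-05) in Tlr997 and 0.90 (SE 0.18, adjusted p = 0.0033) with CL097. No stimulated library overlapped an unstimulated one, and the third CL097 library was the lowest of the stimulated ones. Manf, a secreted UPR target, measured 0.38, 0.20 and 0.28, and Creld2, another such target, 0.26, 0.19 and 0.011, both under the fold threshold. The prolyl isomerase gene Fkbp2 was called with CpG in Tlr997 alone (0.50, adjusted p = 0.00867), at the fold threshold. That call was lost without the third unstimulated, the second CpG or the third CpG library of Tlr997 (log2 fold changes 0.34, 0.48 and 0.42). The difference of the 2 CpG responses of Fkbp2 was 0.23 (adjusted p = 0.649).

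Fkbp11, a second prolyl isomerase known from plasma cells, was near the lower limit of the measurement. Fkbp11 measured -1.33, 0.48 and 0.58 log2 CPM in the unstimulated Tlr9het libraries and 0.36, 0.25 and -1.34 with CpG. Its levels in Tlr997 were 0.78, 0.06 and -0.25 unstimulated against -0.38, 0.04 and 0.82 with CpG, and in Tlr779 -0.05, -1.12 and 1.14 against 1.02, -0.06 and -0.08 with CL097. Its libraries varied by more within a group than between groups. It had too few libraries over 0 log2 CPM to be tested in Tlr779, and its fold changes with CpG were -0.15 (SE 0.62) and -0.034 (SE 0.62).

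In ER-associated degradation, 0 of 7 genes rose and 2 of 7 (28.6%) fell in each response, close to the shares of all genes called lower (28.2%, 26% and 23.6%). Syvn1 (HRD1), the ubiquitin ligase of the retrotranslocation complex, fell in all. The Syvn1 level was 7.91, 7.796 and 7.98 log2 CPM unstimulated and 6.54, 6.34 and 6.35 with CpG in Tlr9het. For Tlr997 the unstimulated values of 7.86, 7.71 and 7.89 stood against 6.79, 6.52 and 6.58 with CpG, and for Tlr779 7.79, 7.74 and 8.08 against 6.77, 6.47 and 6.81 with CL097. For Syvn1 the differences were -1.48 (SE 0.084, adjusted p = 2.48e-09) in Tlr9het, -1.19 (SE 0.084, adjusted p = 2.89e-08) in Tlr997 and -1.19 (SE 0.12, adjusted p = 7.78e-05) in Tlr779 on the log2 scale. Its stimulated and unstimulated libraries were separated by more than 0.9 on the log2 scale in each genotype. Sel1l, the membrane partner that holds HRD1 in place, measured 0.14 and 0.12 with CpG and -0.26 (adjusted p = 0.00938) with CL097, all under the fold threshold. Edem1, which marks misfolded glycoproteins, fell with CpG in both genotypes (-0.54 and -0.64, adjusted p = 1.41e-05 and 2.73e-06) and measured -0.30 with CL097.

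Herpud1, a scaffold of the same complex and a UPR target, was the only gene of the 43 called with CL097 but with neither CpG response. Herpud1 measured 7.17, 7.05 and 7.33 log2 CPM in the unstimulated Tlr9het libraries and 7.397, 7.36 and 7.33 with CpG. Unstimulated Tlr997 libraries had 7.28, 7.04 and 7.07 and those with CpG 7.101, 7.09 and 6.96, while Tlr779 had 7.13, 7.42 and 7.34 and, with CL097, 6.39, 6.602 and 6.43. The log2 fold change of Herpud1 was 0.17 (SE 0.08, adjusted p = 0.0648) with CpG in Tlr9het, -0.08 (SE 0.08, adjusted p = 0.382) with CpG in Tlr997 and -0.82 (SE 0.096, adjusted p = 0.000165) with CL097. The CL097 libraries lay below all 15 other libraries. A difference between the arms in this response was not tested.

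The derlins, membrane proteins of the retrotranslocation channel, were not called in any response. Derl1 measured 6.78, 6.91 and 6.91 log2 CPM in the unstimulated Tlr9het libraries and 7.27, 7.297 and 7.13 with CpG. In Tlr997 B cells the values were 7.06, 7.02 and 6.804 before and 7.13, 7.22 and 7.07 after CpG, and in Tlr779 B cells 6.97, 6.99 and 6.99 before and 6.95, 6.96 and 6.87 after CL097. The Tlr9het libraries were apart, those of Tlr997 and Tlr779 nearly touched, and the log2 fold changes of Derl1 were 0.37 (SE 0.076, adjusted p = 0.000689), 0.18 (SE 0.076, adjusted p = 0.0501) and -0.056 (SE 0.061, adjusted p = 0.449). Derl2 had the highest fold change of this group under CL097, 0.12 (adjusted p = 0.33), with 5.34, 5.49 and 5.51 log2 CPM before and 5.44, 5.71 and 5.53 after. Derl3, the derlin of secretory cells, was low and variable. The Derl3 level was 1.696, 1.42 and 1.27 log2 CPM unstimulated and 1.59, 1.86 and 1.55 with CpG in Tlr9het. The Tlr997 libraries read 1.45, 2.02 and 2.04 unstimulated and 2.02, 2.6 and 2.11 with CpG, and the Tlr779 libraries 1.895, 2.19 and 1.502 unstimulated and 1.84, 0.96 and 1.66 with CL097. Its groups overlapped in Tlr9het, Tlr997 and Tlr779, with fold changes of 0.21 (SE 0.25), 0.41 (SE 0.25) and -0.37 (SE 0.31).

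Of the 8 genes of the translocation channel and signal peptidase, 4 rose and 1 fell with CpG in Tlr9het, 1 rose and 1 fell in Tlr997, and 0 rose and 1 fell with CL097. The one that fell each time was Sec11c, one of the alternative catalytic subunits of signal peptidase. Sec11c measured 6.21, 6.299 and 6.35 log2 CPM in the unstimulated Tlr9het libraries and 4.41, 4.53 and 4.48 with CpG. Tlr997 B cells held 6.59, 6.37 and 6.36 without and 4.67, 4.501 and 4.63 with CpG, and Tlr779 B cells 6.35, 6.47 and 6.33 without and 4.85, 5.296 and 5.27 with CL097. On the log2 scale Sec11c differed by -1.82 (SE 0.082, adjusted p = 2.77e-10) in Tlr9het, -1.84 (SE 0.082, adjusted p = 3.17e-10) in Tlr997 and -1.25 (SE 0.13, adjusted p = 7.73e-05) with CL097. The fall of Sec11c was 3.52-fold, 3.58-fold and 2.37-fold, with no overlap of libraries. The other catalytic subunit, Sec11a, of the longer pathway list, measured 0.26, 0.22 and -0.20 and was not called.

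Sec61g, the gamma subunit of the channel, had the highest fold change with CpG in Tlr9het. The Sec61g level was 4.18, 4.53 and 4.13 log2 CPM unstimulated and 5.07, 5.204 and 4.98 with CpG in Tlr9het. With CpG in Tlr997 the level went from 5.09, 4.54 and 4.19 to 4.87, 4.78 and 4.91, and with CL097 in Tlr779 from 4.26, 4.73 and 4.38 to 4.76, 5.25 and 4.75. Fitted by limma, the Sec61g responses were 0.81 (SE 0.18, adjusted p = 0.00123) for CpG in Tlr9het, 0.25 (SE 0.18, adjusted p = 0.232) for CpG in Tlr997 and 0.46 (SE 0.18, adjusted p = 0.0506) for CL097. The unstimulated Tlr997 libraries spanned 0.9 on the log2 scale and overlapped those with CpG. Sec61b, the beta subunit, had the highest in Tlr997. Sec61b measured 4.02, 4.05 and 4.01 log2 CPM in the unstimulated Tlr9het libraries and 4.53, 4.53 and 4.61 with CpG. Its levels in Tlr997 were 3.96, 4.03 and 4.48 unstimulated against 4.78, 4.79 and 4.53 with CpG, and in Tlr779 3.79, 4.04 and 3.796 against 4.26, 4.33 and 4.15 with CL097. This gave Sec61b log2 fold changes of 0.53 (SE 0.13, adjusted p = 0.00219) in Tlr9het, 0.54 (SE 0.13, adjusted p = 0.00188) in Tlr997 and 0.37 (SE 0.12, adjusted p = 0.0282) in Tlr779. The Sec61b call in Tlr997 was lost without the first or second unstimulated library (log2 fold changes 0.45 and 0.48).

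Spcs1, a non-catalytic subunit of signal peptidase, rose with CpG in Tlr9het and stayed under the fold threshold in Tlr997. The Spcs1 level was 5.42, 5.64 and 5.498 log2 CPM unstimulated and 6.17, 6.24 and 6.25 with CpG in Tlr9het. For Tlr997 the unstimulated values of 5.802, 5.74 and 5.76 stood against 5.98, 6.06 and 6.10 with CpG, and for Tlr779 5.64, 5.87 and 5.66 against 5.74, 6.02 and 5.85 with CL097. Spcs1 had log2 fold changes of 0.70 (SE 0.067, adjusted p = 5.22e-07) with CpG in Tlr9het, 0.28 (SE 0.067, adjusted p = 0.00219) in Tlr997 and 0.15 (SE 0.1, adjusted p = 0.234) with CL097. Ssr1, of the TRAP complex beside the channel, was called in Tlr9het at the fold threshold (0.50), a call lost without the first unstimulated or the second CpG library of Tlr9het (0.50 and 0.48), and measured 0.26 in Tlr997. Sec61a1, the channel itself, measured 0.44 in Tlr9het and 0.20 in Tlr997, Ssr3 0.19 and 0.048, and Spcs2 0.16 and 0.049, all under the fold threshold.

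Of the 5 stress sensors and transcription factors, 3 rose and 0 fell in each response, where 29.7%, 29.6% and 22.7% of all genes were called higher. Trib3, a pseudokinase gene induced through ATF4, had the largest rise of the 43 genes. Trib3 measured 2.91, 2.84 and 2.79 log2 CPM in the unstimulated Tlr9het libraries and 6.16, 6.15 and 5.98 with CpG. Unstimulated Tlr997 libraries had 2.897, 3.301 and 2.93 and those with CpG 5.35, 5.84 and 5.33, while Tlr779 had 2.22, 2.87 and 2.27 and, with CL097, 4.101, 3.43 and 3.41. For Trib3 the differences were 3.25 (SE 0.15, adjusted p = 2.56e-10) in Tlr9het, 2.47 (SE 0.15, adjusted p = 4.47e-09) in Tlr997 and 1.19 (SE 0.26, adjusted p = 0.00407) in Tlr779 on the log2 scale. The rises were 9.51-fold, 5.53-fold and 2.29-fold. The first CL097 library was above the other two and the second unstimulated Tlr779 library above its group, and the CL097 and unstimulated ranges still did not overlap.

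Atf6, the membrane-bound sensor that becomes a transcription factor when cleaved, rose in all 3 responses. Atf6 measured 7.17, 7.25 and 7.16 log2 CPM in the unstimulated Tlr9het libraries and 8.46, 8.43 and 8.49 with CpG. In Tlr997 B cells the values were 7.04, 7.404 and 7.13 before and 7.91, 8.05 and 8.0 after CpG, and in Tlr779 B cells 7.402, 7.44 and 7.48 before and 8.19, 7.98 and 7.92 after CL097. The log2 fold change of Atf6 was 1.27 (SE 0.079, adjusted p = 6.1e-09) with CpG in Tlr9het, 0.80 (SE 0.079, adjusted p = 7.83e-07) with CpG in Tlr997 and 0.59 (SE 0.082, adjusted p = 0.000404) with CL097. With CpG, every Tlr997 library was below every Tlr9het library. Atf4 rose by 1.22, 1.06 and 0.64 on the log2 scale (adjusted p = 5.22e-09, 2.5e-08 and 0.000768), although ATF4 is set largely by translation, which mRNA does not measure. Ddit3 (CHOP), a target of ATF4, was not called. The Ddit3 level was 4.51, 4.19 and 4.203 log2 CPM unstimulated and 4.96, 4.49 and 4.55 with CpG in Tlr9het. The Tlr997 libraries read 4.57, 4.50 and 4.19 unstimulated and 4.51, 4.803 and 4.37 with CpG, and the Tlr779 libraries 4.38, 4.33 and 4.23 unstimulated and 4.38, 4.19 and 4.35 with CL097. On the log2 scale Ddit3 differed by 0.36 (SE 0.16, adjusted p = 0.0529) in Tlr9het, 0.14 (SE 0.16, adjusted p = 0.441) in Tlr997 and -0.0073 (SE 0.11, adjusted p = 0.956) with CL097. The Ddit3 libraries overlapped in Tlr997 and Tlr779, and in Tlr9het 1 of the CpG libraries lay below the highest unstimulated one.

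Ern1, the sensor that splices Xbp1, had the lowest fold change of its group in Tlr9het and Tlr779. Ern1 measured 4.61, 4.33 and 4.27 log2 CPM in the unstimulated Tlr9het libraries and 4.36, 4.44 and 4.27 with CpG. Tlr997 B cells held 4.02, 3.86 and 3.65 without and 4.16, 4.198 and 4.23 with CpG, and Tlr779 B cells 4.39, 4.33 and 4.56 without and 4.25, 4.08 and 4.52 with CL097. Fitted by limma, the Ern1 responses were -0.043 (SE 0.12, adjusted p = 0.765) for CpG in Tlr9het, 0.36 (SE 0.12, adjusted p = 0.0172) for CpG in Tlr997 and -0.14 (SE 0.14, adjusted p = 0.401) for CL097. The 3 unstimulated Tlr997 libraries were all below the 3 unstimulated Tlr9het libraries, by 0.56 on the log2 scale in the means, with an unadjusted p of 0.000458 in limma, adjusted p = 0.295. Ell2, an elongation factor that favours the secretory form of immunoglobulin heavy chain mRNA, was not called in any response. The Ell2 level was 6.79, 6.698 and 6.57 log2 CPM unstimulated and 6.68, 6.65 and 6.68 with CpG in Tlr9het. With CpG in Tlr997 the level went from 6.69, 6.74 and 6.75 to 6.54, 6.504 and 6.38, and with CL097 in Tlr779 from 6.53, 6.76 and 6.51 to 6.73, 6.73 and 6.77. This gave Ell2 log2 fold changes of -0.012 (SE 0.065, adjusted p = 0.874) in Tlr9het, -0.25 (SE 0.065, adjusted p = 0.00327) in Tlr997 and 0.14 (SE 0.083, adjusted p = 0.173) in Tlr779. All 3 fold changes were under the threshold, and in Tlr997 alone the CpG libraries were all below the unstimulated ones.

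**Figure D3:**
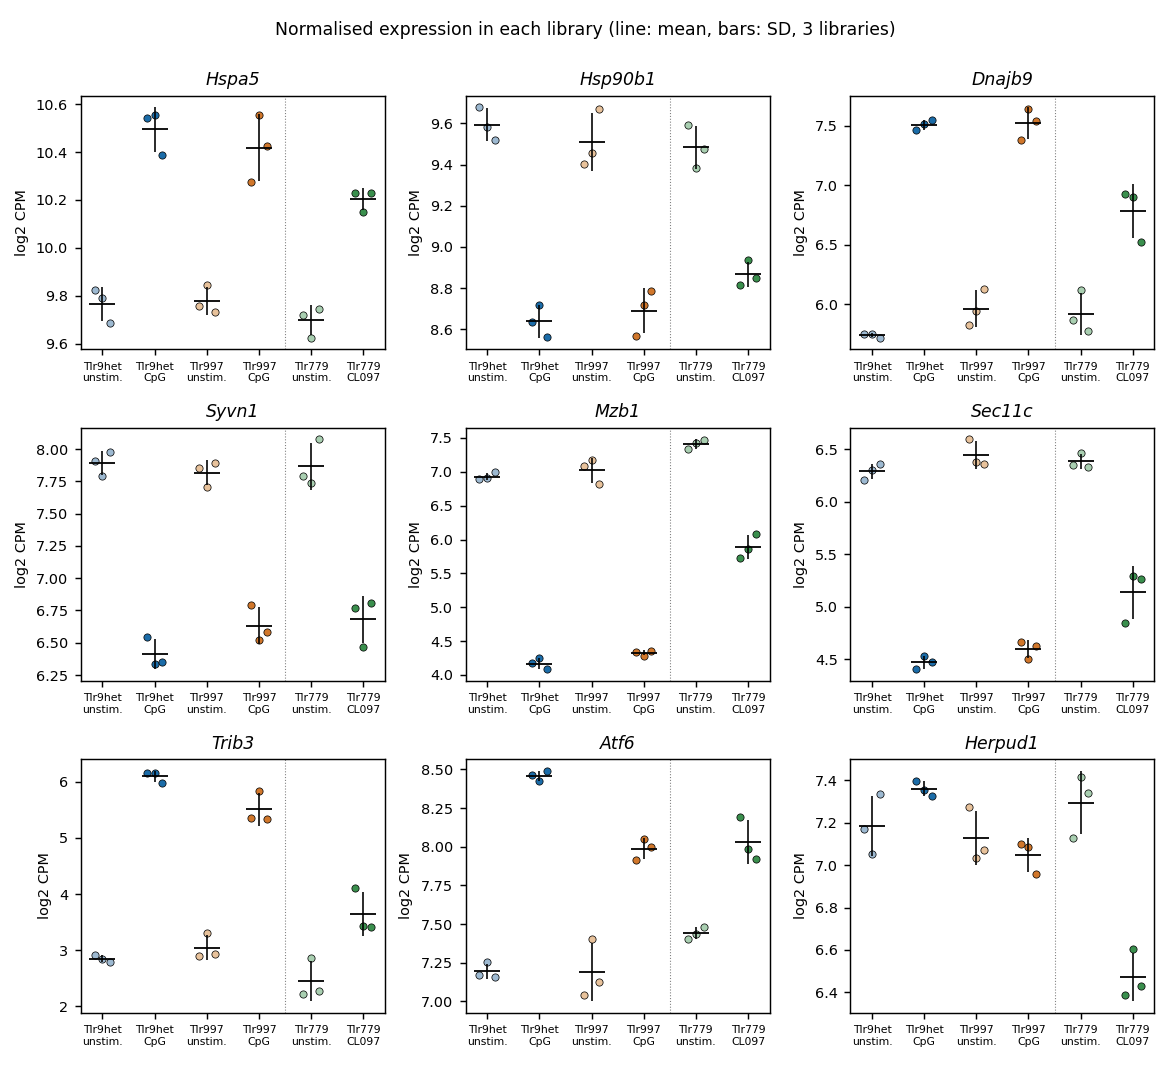
Expression (log2 CPM) of 9 genes in every library, by group; points are libraries, lines means and bars SD (3 libraries), and the dotted line separates the arms. Stimulated and unstimulated libraries are apart in each genotype for Hspa5, Hsp90b1, Dnajb9, Syvn1, Mzb1, Sec11c, Trib3 and Atf6, and Herpud1 is low only in the 3 CL097 libraries.

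Of the 43 genes, 14 were called in all 3 responses, 7 higher (Hspa5, Hyou1, Dnajb9, Sdf2l1, Atf4, Atf6 and Trib3) and 7 lower (Hsp90b1, Dnajc10, Pdia4, Txndc11, Mzb1, Syvn1 and Sec11c), and 20 were called in none. Of the 42 genes tested in both arms, 16.7% were called higher and 16.7% lower in all 3 responses and 45.2% in none, where the shares over all 11012 such genes were 19%, 19% and 31.2%. The 2 CpG responses, which share no library, had 17 called genes in common, all in the same direction, a share of 40.5% beside 50.2% of all genes. The fold change was smaller in Tlr997 for 13 of the 17 (76.5%, against 66% of all genes called in both). The CL097 response shared 14 called genes with CpG in Tlr9het, again in the same direction (33.3%, against 40.5% of all genes). Each of these 14 had the smaller fold change with CL097, as did 80.8% of all genes called in both, with a median ratio of 0.654 against 0.748, and whether this follows the agonist, the receptor, the sex or the arm cannot be told apart. Over the genes, the fold changes with CpG in Tlr9het correlated with those in Tlr997 at 0.978 (43 genes) and with those of CL097 at 0.933 (42 genes), as a description across genes, which are not replicates.

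**Figure D4:**
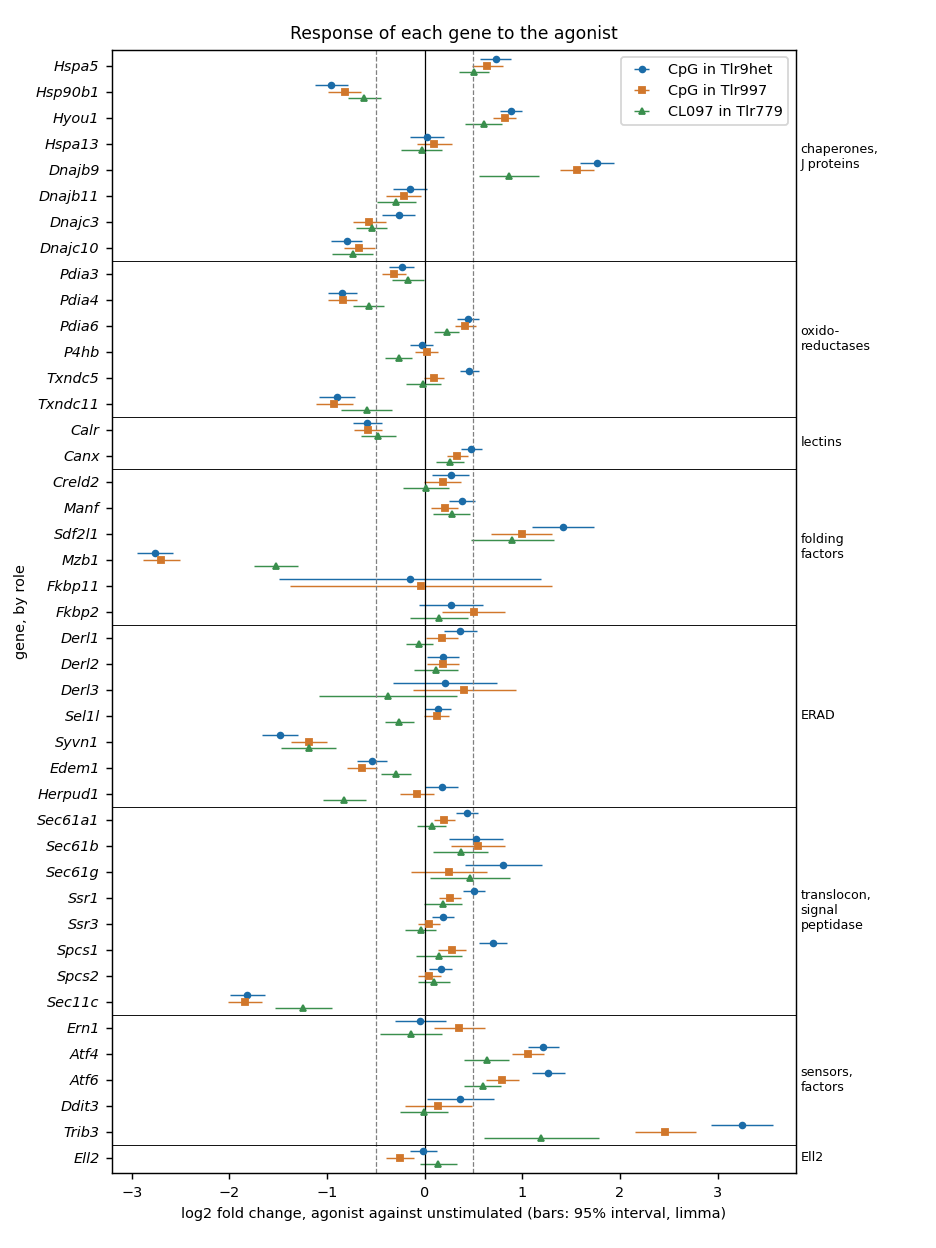
Log2 fold change with agonist for each of the 43 genes, by role, with 95% intervals from limma, for CpG in Tlr9het (circles), CpG in Tlr997 (squares) and CL097 in Tlr779 (triangles); dashed lines mark 0.5 in each direction. The CL097 changes of Mzb1, Sec11c, Trib3 and Dnajb9 are smaller than both CpG changes, and Herpud1 is the gene called with CL097 and with neither CpG response.

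The genotype comparison sets B cells whose TLR9 carries the TIR domain of TLR7 beside the control cells. Reads at Tlr9 also differed, at 7.015 to 7.06 log2 CPM in unstimulated Tlr997 and 7.276 to 7.483 in unstimulated Tlr9het libraries. With CpG they were 7.181 to 7.555 in Tlr997 and 7.932 to 8.077 in Tlr9het. Such reads do not measure intact receptor, since the Tlr9-/- libraries of the second arm held 6.93 to 7.47. The paper reports equal TLR9 protein in B cell subsets of the same genotypes, stained in male mice. The part of this difference in reads in the results below was not tested. Unstimulated, 0 of the 43 genes were called between Tlr997 and Tlr9het in either direction (0.0174% of all genes higher and 0% lower), and 8 had an unadjusted p under 0.05, against 1237 of the 11494 genes tested. With CpG, 0 genes were higher in Tlr997 (1.25% of all genes) and 1 was lower (1.47% of all genes), Trib3. Its 3 CpG libraries measured 6.16, 6.15 and 5.98 log2 CPM in Tlr9het and 5.35, 5.84 and 5.33 in Tlr997, so that all Tlr997 values were below all Tlr9het values. The difference was -0.59 (SE 0.15, adjusted p = 0.0334), or 1.5-fold. That call was lost without any single CpG library other than the second Tlr997 one, with adjusted p between 0.0696 and 0.13, and without the second Tlr997 library it was -0.75 (adjusted p = 0.00971). It was also lost with all 18 libraries in 1 model, with no filter on low values and with no trend of the variance (adjusted p = 0.125, 0.129 and 0.0668).

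At any fold change, 4 of the 43 genes had an adjusted p under 0.05 and all 4 were lower in Tlr997 with CpG, where 3.01% of all genes were. Besides Trib3 these were Atf6 at -0.47 (SE 0.079, adjusted p = 0.00358), Txndc5 at -0.32 (SE 0.046, adjusted p = 0.00159) and Herpud1 at -0.31 (SE 0.08, adjusted p = 0.037). The Atf6 libraries with CpG measured 8.46, 8.43 and 8.49 in Tlr9het and 7.91, 8.05 and 8.0 in Tlr997, and those of Txndc5 7.48, 7.44 and 7.499 and 7.21, 7.13 and 7.14. Both genes separated the genotypes with CpG. Unstimulated, the genotypes overlapped for Atf6, and for Txndc5 the Tlr997 libraries stood just above the Tlr9het ones. The genotypes overlapped with CpG for Hspa5, Hsp90b1 and Dnajb9, with differences of -0.076 for Hspa5 (95% interval -0.24 to 0.084), 0.053 for Hsp90b1 (-0.12 to 0.22) and 0.013 for Dnajb9 (-0.16 to 0.19).

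The difference between the CpG responses themselves (Tlr997 minus Tlr9het) was called for 0 of the 43 genes, where 0.687% of all genes were called higher and 0.861% lower. Of the 43, 12 had an unadjusted p under 0.05, against 1839 of all 11494. At any fold change 3 passed, all with the smaller response in Tlr997 (1.14% of all genes passed in that direction), namely Atf6 at -0.47 (SE 0.11, adjusted p = 0.0495), Txndc5 at -0.36 (SE 0.065, adjusted p = 0.0136) and Spcs1 at -0.42 (SE 0.095, adjusted p = 0.0412). For Spcs1 the unstimulated Tlr997 level was higher by 0.25 (adjusted p = 0.295), with all 3 libraries above those of Tlr9het, and the level with CpG differed by -0.17 (adjusted p = 0.179). The largest difference was that of Trib3, -0.78 (SE 0.21, adjusted p = 0.0745), which did not pass. Whether it was called depended on the fit. It was called with array quality weights (-0.84), with replicate numbers as a block, and without the third unstimulated or the second CpG library of Tlr997 (-0.84 and -0.95). Atf6 was called with array quality weights (-0.54) and without the first or the third unstimulated library of Tlr997 (-0.54 and -0.50). The median difference over the 43 genes was -0.078, against 0.012 over all genes tested. Below 0 were 30 of the 43, given without the share of all genes below 0 and as a description across genes, which are not replicates.

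**Figure D5:**
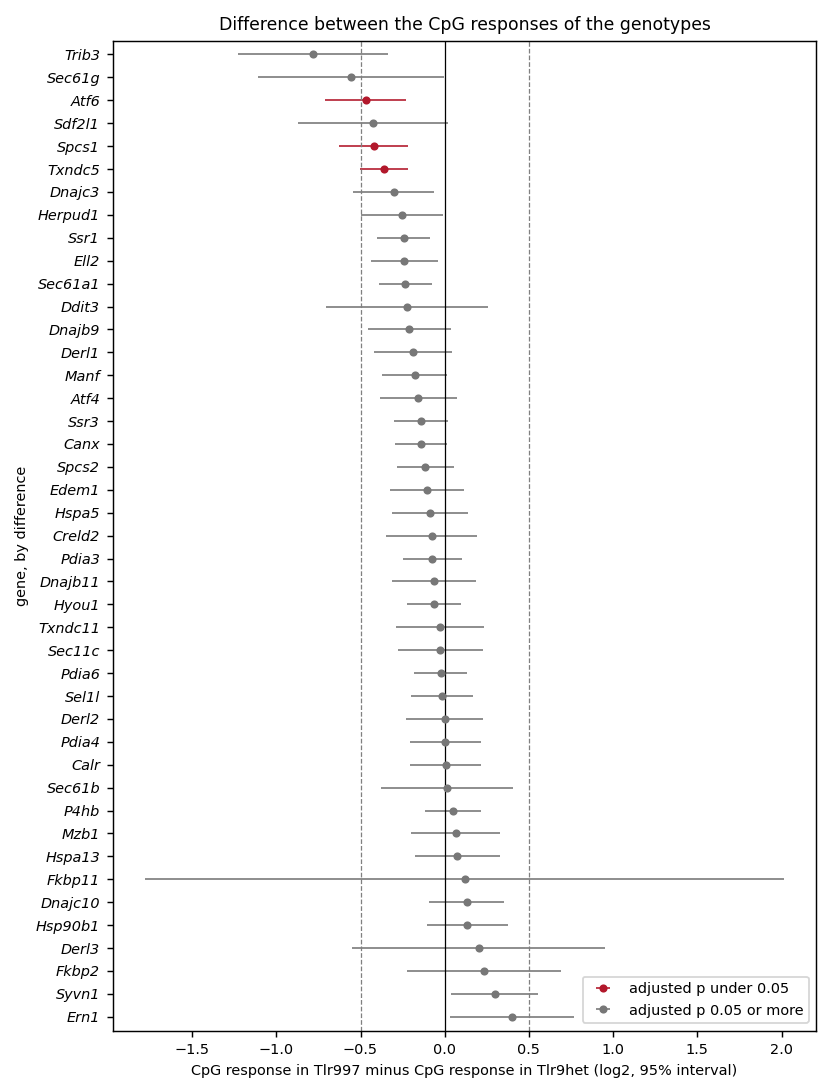
Difference between the CpG responses of Tlr997 and Tlr9het for each of the 43 genes, in order of its size, with the 95% interval from limma; dashed lines mark 0.5 in each direction. The 3 genes with an adjusted p under 0.05 (Atf6, Spcs1 and Txndc5) lie between -0.47 and -0.36, and Trib3 is lowest at -0.78 with a wider interval.

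The rest of the pathway was covered by a second list of 75 genes, 74 of them tested in the first arm and 73 in the second. With CpG in Tlr9het 26 rose and 11 fell, in Tlr997 25 rose and 11 fell, and with CL097 12 rose and 8 fell. Between the genotypes 0 of the 74 were called by limma, unstimulated or with CpG. An unadjusted p under 0.05 was held by 10 and 15 of them, against 1237 and 2187 of all 11494 genes tested. Shares of 35.1% called higher and 14.9% called lower for CpG in Tlr9het stand beside 29.7% and 28.2% of all genes. In Tlr997 they were 33.8% and 14.9%, beside 29.6% and 26%, and with CL097 16.4% and 11%, beside 22.7% and 23.6%. The higher share was thus above that of all genes with CpG and below it with CL097, and the lower share was below it in each response. With CpG in Tlr9het, 8 of 17 genes of vesicle transport between ER and Golgi rose, among them Kdelr2, Sec13 and Sar1b (1.27, 0.94 and 0.81), and 2 fell, Kdelr1 and Copa (-0.53 and -0.65). Of 9 N-glycosylation genes 4 rose, including Ddost and Rpn1 of the oligosaccharyltransferase (1.05 and 0.63), and 0 fell. Of 12 degradation genes 3 fell, Selk and the lectins Os9 and Erlec1 (-0.63, -0.79 and -1.03), and 1 rose, the ubiquitin-conjugating enzyme gene Ube2g2 (1.17). Of 14 genes of targeting and translocation 2 rose, Srp19 and Srprb (1.24 and 1.34), and 0 fell.

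The largest changes of the second list lay in stress signalling and oxidation. Chac1, a glutathione-degrading enzyme downstream of ATF4, measured 2.17, 1.98 and 2.55 log2 CPM unstimulated and 5.63, 5.65 and 5.78 with CpG in Tlr9het, a log2 fold change of 3.45 (SE 0.41, adjusted p = 4.52e-06), with 3.22 (SE 0.41, adjusted p = 9.65e-06) in Tlr997 and 1.85 (SE 0.22, adjusted p = 0.000169) with CL097. Asns, the asparagine synthetase gene, rose by 2.65, 2.52 and 1.41, and Sesn2, a stress-induced sestrin, by 2.32, 1.83 and 0.81. These ATF4-linked genes rose along with Trib3, whereas Ddit3 did not pass. Srp54a, of the signal recognition particle, is counted among the 25 genes that rose in Tlr997, with -2.19, -1.53 and -4.95 log2 CPM unstimulated and 0.03, -0.39 and -0.37 with CpG. It passed the filter on low values through 3 CpG libraries of the first arm alone, so that its difference rests on unstimulated values near the lower limit of the measurement and is uncertain. The mouse genome holds near-identical copies of this gene, and how reads were divided among them was not examined.

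Eif2ak3, which encodes PERK, went the opposite way to Atf6, with 7.54, 7.39 and 7.45 log2 CPM unstimulated and 5.42, 5.18 and 5.204 with CpG in Tlr9het. Its log2 fold changes were -2.19 (SE 0.087, adjusted p = 8.73e-11), -2.01 (SE 0.087, adjusted p = 2.48e-10) and -1.45 (SE 0.11, adjusted p = 1.6e-05). The sensors of the UPR thus split at the mRNA level into 1 that rose (Atf6), 1 that fell (Eif2ak3) and 1 that was not called (Ern1). Xbp1, without distinction of its spliced form, fell by 0.52, 0.55 and 0.57, and Creb3l2, an ER-anchored factor of the ATF6 family, by 1.44, 1.82 and 1.93. The oxidases that recharge PDI parted as well, with Ero1l higher by 1.59, 1.34 and 1.19 and Ero1lb at -2.72, -2.57 and -1.41. Ero1lb measured 7.97, 8.03 and 8.08 log2 CPM before and 5.41, 5.37 and 5.14 after CpG in Tlr9het.

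Set beside the printed promoters, the 9 genes with the full ER stress response element had fold changes with CpG in Tlr9het of 0.73 (Hspa5), 0.48 (Canx), 0.44 (Pdia6), 0.26 (Creld2), 0.21 (Derl3), -0.26 (Dnajc3), -0.59 (Calr), -0.96 (Hsp90b1) and -1.48 (Syvn1). Of these, 1 was called higher and 3 lower, where 29.7% of all genes tested were called higher and 28.2% lower. Hspa5 and Hsp90b1 moved in opposite directions, and both hold the boxes, at 65 bases in Hspa5 and at 212 and 107 bases in Hsp90b1. Only exact matches were searched, and the part of the element in these changes was not tested.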

How the data were processed

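RNA of bead-purified splenic B cells was sequenced by the authors (mRNA libraries, paired ends), trimmed with Trim Galore 0.6.5, aligned to mm10 with STAR 2.6.1a and counted per gene with featureCounts (Subread 2.0.1). The deposited values are log2 CPM after quantile normalisation and voom, without counts, so depth and counting error are unknown. Among 6614 genes under -4 log2 CPM throughout the first arm, 6306 held a single value per replicate number and for 822 of them that value differed between numbers, as after removal of an offset per number. This was counted in the first arm alone. Hbb-b1 read -4.941, -4.758 and -5.457 in unstimulated Tlr779 libraries and also in Tlr9het libraries with CpG. If such an offset was removed before deposit, the main fits take no account of it, and their SE and p-values may be too small. Differences were computed here with limma 3.58.1 (R 4.3.3), a mean per group, a variance trend and Benjamini-Hochberg adjustment, on genes with at least 3 fitted libraries over 0 log2 CPM. Each arm was fitted alone. Same-numbered unstimulated and stimulated libraries deviated together in Tlr779 (correlations 0.252 to 0.485) and Tlr9het (0.287 to 0.513) but not in every Tlr997 pair (0.0248 to 0.373). Neither arm was treated as paired in the main fits, also not Tlr779, and replicate numbers as a block were an alternative.

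The 43 genes, the second list, the markers and the tests were chosen with earlier results of these data known. Values per library are given, within each role, for the genes with the largest and the smallest log2 fold change in each response, for genes called between the genotypes and for genes not tested. From the second list up to 4 genes per response, by size of change, are given. Hspa5, Atf6, Spcs1, Herpud1, the 3 ratios and the other genes of the second list that carry values were chosen after their values were seen. The fit was tested on simulated data. Alternatives were the replicate block, array quality weights, all 18 libraries, other filters and thresholds, centring, log2(CPM + 1), no trend and leaving out each library. The wild-type TLR7 control libraries were not analysed here.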

Additional observations from a re-analysis of the deposited data

Results flagged for a closer look

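The CpG responses of 3 genes differed between the genotypes by the test of the difference itself (limma, Benjamini-Hochberg adjustment over 11494 genes), each with the smaller response in Tlr997 and each under the fold threshold of 0.5. Atf6 differed by -0.469 on the log2 scale (SE 0.11, adjusted p = 0.0495), with a log2 fold change of 1.27 in Tlr9het and 0.80 in Tlr997. Txndc5, an oxidoreductase, differed by -0.3617 (SE 0.065, adjusted p = 0.0136), with 0.46 in Tlr9het and 0.096 in Tlr997. Spcs1, a signal peptidase subunit, differed by -0.4213 (SE 0.095, adjusted p = 0.0412), with 0.70 in Tlr9het and 0.28 in Tlr997. For Spcs1 the unstimulated levels also differed, by 0.25 (unadjusted p = 0.0026, adjusted p = 0.295 in limma), Tlr997 being higher in 3 of 3 libraries, and with CpG the difference was -0.17 (adjusted p = 0.179). The adjusted p-values of Atf6 and Spcs1 lie near the threshold. They may be too small if an offset per replicate number was removed before deposit.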

How the results depend on the processing

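No call changed direction under any alternative. A threshold of 1 on the log2 scale left 8 of the 43 genes called with CpG in Tlr9het, 6 with CpG in Tlr997, 4 with CL097 and 0 between the genotypes with CpG, and no fold threshold gave 32, 30, 25 and 4, with 3 for the difference of the CpG responses. Apart from shares given above, those of all genes at these and the following settings are not given. The counts thus show only how the calls depend on the settings. The 1 gene called between the genotypes with CpG became 0 with all 18 libraries in 1 model, with no filter on low values and with no trend of the variance. Array quality weights gave 2 genes for the difference of the CpG responses (Trib3 and Atf6). With replicate numbers as a block the count for that difference was 1, Trib3 at -0.78 (SE 0.13, adjusted p = 0.0072), and the block changed no other call. In Tlr9het and Tlr779, but not in Tlr997, every library deviated most like its own number. Leaving out 1 library at a time gave 19 to 20 genes with CpG in Tlr9het, 17 to 19 in Tlr997, 15 to 17 with CL097, 0 to 0 between unstimulated genotypes, 0 to 2 between genotypes with CpG and 0 to 2 for the difference of the responses. The count of 0 between genotypes with CpG came when a CpG library other than Tlr997 CpG replicate 2 was left out. Leaving out Tlr997 CpG replicate 2 gave the count of 2 (Trib3 and Atf6). Trib3 stayed called without each of the unstimulated libraries (adjusted p = 0.0202 to 0.0497 in limma). For the difference of the responses the count was 1 without the first unstimulated (Atf6) or second CpG (Trib3) library of Tlr997 and 2 without the third unstimulated library of Tlr997 (Trib3 and Atf6). The values carry no counts, so differences of low genes such as Fkbp11 and Derl3 have no known counting error. The difference of responses restricted to fewer groups was not run, as it needs all 4 groups.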
